A study of Caenorhabditis elegans with 12 samples.

Results

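The windows described here were the coding promoters on the arms of chromosome III of *Caenorhabditis elegans*: windows of 1700 bp around the start sites of RefSeq protein-coding transcripts (accessions beginning NM), placed on the left arm (window starts from 0.25 to 3.7 Mb, ce10 assembly) or on the right arm (from 10.3 to 13.5 Mb). Of 51519 promoter windows in the table, 1432 met this definition, 702 on the left arm and 730 on the right arm. Windows overlapping a pair of intervals on the right arm, 13 in all, were set aside. One member window held no counts, so 1431 were tested, 701 on the left arm and 730 on the right arm. The 1432 windows covered 1355 distinct positions and merged into 859 separate loci, and 1325 of them carried the symbol of 1 of 987 genes. The other 107 are given by their transcript accession. Neighbouring windows were not independent measurements, since 893 overlapped another member window and 463 overlapped one on the opposite strand.

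Chromatin accessibility was measured by Omni-ATAC, which uses the Tn5 transposase to tag and cut open DNA, in body-wall muscle cells sorted from L3 larvae. There were 12 libraries, 3 of each of 4 genotypes. WT animals were N2 (Bristol) in the labels. The mutants carried the n4256 allele of *met-2*, the n5021 allele of *set-25*, or both, all on chromosome III. Larvae had grown for 32 h at 20 °C, and 50000 cells per sample were sorted by a muscle RFP, expressed from the *myo-3* promoter in the integrated array *gwIs4* on X, which also carries a *baf-1*-driven GFP-LacI. Since cells were sorted by this RFP, the strains of every genotype were taken to carry the array, which the labels do not name. Both mutated genes lie on chromosome III themselves. The labels speak of a pair of independent biological replicates and the titles of 3, so p-values measure the spread between these samples.

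MET-2 and SET-25 are the histone methyltransferases that place methyl groups on lysine 9 of histone H3 (H3K9me) in *C. elegans* somatic cells. MET-2 resembles mammalian SETDB1 and deposits mono- and dimethylation, and SET-25 deposits trimethylation. H3K9me, repeats and attachment to the nuclear periphery are concentrated on the distal arms of worm autosomes, whereas the central regions hold most of the broadly expressed genes. Animals that lack both enzymes have no detectable H3K9me in embryos. Accessibility at the promoters of these arms was therefore compared across the 4 genotypes.

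Counts summed over all windows came to 50148450 to 105547683 per library, of which the arm windows took 2.50 to 2.62%. A read in overlapping windows enters this sum more than once, so it is not a number of reads. The median arm window had 899 to 1878 reads, depending on the library. Values below are normalized counts, that is the window's count divided by the library's total (this sum over windows) and multiplied by the mean total. Over the whole table, 86.1% of the start windows of body-wall muscle genes lay above the median of all windows in WT. The share was 75.2% for hypodermal and seam genes, 69.5% for neuronal, 66.7% for pharyngeal, 60.4% for germline and 39% for intestinal genes. It was 22.6% for the major sperm protein genes. Proteasome genes (97.2%) and ribosomal protein genes (93.5%) exceeded the muscle list, so a high share is not particular to muscle genes. The start windows of the mutated genes had counts in every library, 1665 to 1931 at *met-2* and 474 to 595 at *set-25*, and so did not check the genotypes. The 6 windows in the first interval set aside were higher in *met-2* than in WT by a log2 fold change (log2FC) of 0.90 to 0.99, and differed from WT by −0.17 to −0.05 in *met-2 set-25*. The 7 in the second, which holds *set-25*, differed from WT by −0.04 to 0.02 in *met-2*.

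A signal index, the percentage of autosomal window counts that fell in the 5% of windows that had the largest mean counts in *set-25*, was 9.31, 9.99 and 9.08% in WT. The *met-2* libraries had 9.78, 10.002 and 8.87%, those of *set-25* 9.12, 9.15 and 9.12%, and the double mutant 10.1, 11.3 and 10.4%. All 3 double-mutant libraries thus lay above all 9 others on this measure of how strongly a library's reads concentrate in open windows.

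In WT muscle the arm promoters had a median normalized count of 1447 (interquartile range 1210 to 1687), with a median coefficient of variation between the 3 libraries of 5.03%. The left arm had a median of 1400 and the right arm of 1509. Coding promoters in the centre of III had a median of 1673 (1541 to 1826), those on the arms of II 1502 and those on the arms of V 1492. By library, the median over arm windows of III ranged from 1379 to 1475 and that over central windows from 1573 to 1708, so the arms were lower than the centre in all 12 libraries and the ranges did not overlap. These levels are per window of one length and carry no test.

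**Figure D1:**
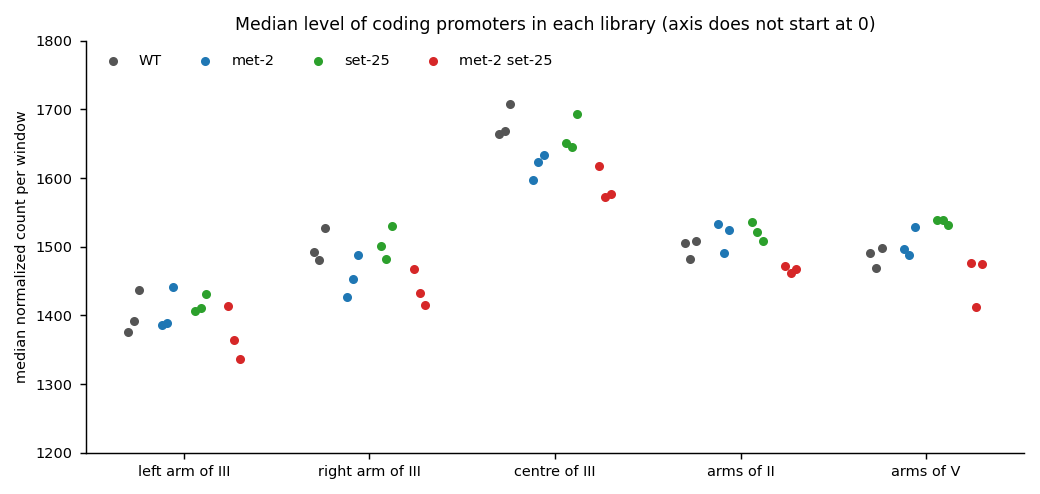
Median normalized count per window (y axis, not from 0) of coding promoters on the arms and in the centre of III and on the arms of II and V, 1 point per library, coloured by genotype. The left arm of III was lowest and the centre of III highest, with WT medians of 1400 and 1673, and the *met-2 set-25* libraries tended to the lower end in each region.

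Few promoters on these arms were more accessible in animals lacking both methyltransferases than in WT. In *met-2 set-25* versus WT, 26 windows at 14 loci were more accessible and 2 were less accessible (edgeR's quasi-likelihood test with Benjamini-Hochberg adjustment over all 51281 windows tested, called at FDR below 0.01). That was 1.82% of arm windows higher against 3.44% of all windows, and 0.140% lower against 0.731% of all windows. The gains were modest, with log2FC from 0.25 to 0.64 and a median of 0.37. In a bulk assay, a window open in more cells and one cut more often in each cell cannot be told apart. The typical arm promoter moved little: the median log2FC was −0.04, the same as over all windows, and 97.3% of arm windows lay within 0.25 of no change. With TMM factors in place of library totals the arm median was −0.01, so medians this close to 0 carry no firm direction. Medians were −0.03 on the left arm, −0.06 on the right arm, −0.07 in the centre of III, −0.03 on the arms of II and −0.03 on those of V. The centre of III had 47 windows higher and 38 lower of 2076 (2.264 and 1.830%), the arms of II 36 and 7 of 2250 (1.60 and 0.311%), and the arms of V 118 and 4 of 4584 (2.57 and 0.0873%); the differences between regions were not tested.

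The calls depended on single libraries and on the signal index. The number higher was 11 without WT replicate 1, 8 without WT replicate 3 and 4 without *met-2 set-25* replicate 2, but 36 without WT replicate 2. The number lower was 1, 0, 0 and 13 without these, in the same order, and 8 without *met-2 set-25* replicate 1. Adding the signal index to the model left 0 calls in either direction in this contrast. The index moved with genotype, so its part in these results and that of genotype cannot be told apart.

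Without a test threshold, all 3 double-mutant libraries were above all 3 WT libraries at 100 arm windows (6.99%, against 10.5% of all windows) and below them at 239 (16.7%, against 17.0% of all windows). All 26 windows called higher were among the former.

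**Figure D2:**
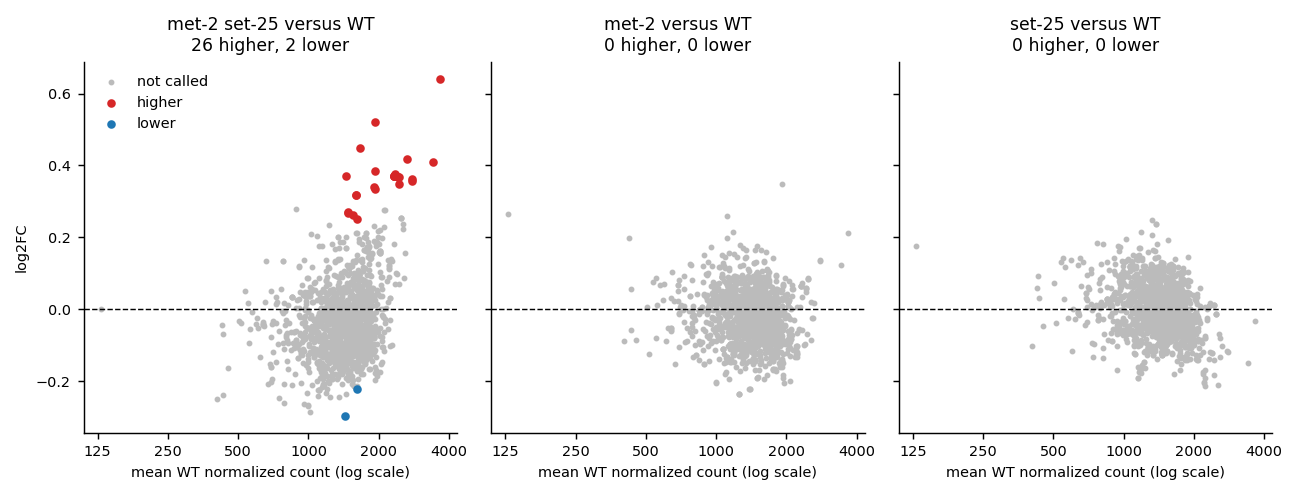
Log2FC (y axis) against the mean WT normalized count (x axis, log scale) of the 1431 arm windows tested, for *met-2 set-25*, *met-2* and *set-25* versus WT, with windows higher in red and lower in blue. Of the 26 higher windows in the double mutant, 18 lay in the highest quintile of WT level and 3 in the middle quintile. Neither single mutant had a call.

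Among the genes whose promoters opened in the double mutant, the smallest FDR belonged to *Y54F10BM.9* on the left arm (NM_065132, III:2304717-2306416, minus strand). Its normalized counts were 1916, 2086 and 1767 in WT and 2582, 3058 and 2632 in the double mutant. Those of *met-2* were 2466, 2664 and 2212 (*set-25*, 1879, 1962 and 1925). Here the *met-2* libraries, too, lay above every WT library, and they overlapped the double mutant. Log2FC was 0.52 ± 0.079 (SE) in *met-2 set-25* (FDR = 9.9e-06) and 0.35 in *met-2*, where it missed the threshold (FDR = 0.033). The *set-25* libraries lay inside the WT range.

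The promoter of *zip-1*, which encodes a bZIP transcription factor, followed (NM_067201, III:12334144-12335843, plus strand). Its counts were 1448, 1495 and 1379 in WT and 1805, 1972 and 1803 in the double mutant. In *met-2* they were 1558, 1658 and 1385, and in *set-25* 1461, 1422 and 1456. The double-mutant libraries stood above all 9 others, and the *met-2* libraries overlapped those of WT. Log2FC was 0.37 ± 0.060 versus WT (FDR = 3.7e-05) and 0.28 versus *met-2* (FDR = 0.0061).

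The largest gain was at the window that was also the most open of all 1431 in WT, that of the unnamed transcript NM_001384005 near the left end of the chromosome (III:354494-356193, minus strand). It had counts of 3590, 4369 and 3035 in WT and 4797, 6809 and 5545 in the double mutant. The single mutants read 4433, 4862 and 3444 (*met-2*) and 3438, 3595 and 3717 (*set-25*). The 3 double-mutant values were spread widely, and the lowest of them lay just under the highest *met-2* value. Log2FC was 0.64 ± 0.106 versus WT (FDR = 5.2e-05) and 0.43 versus *met-2* (FDR = 0.017).

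A second unnamed transcript, NM_065282 (III:3270313-3272012, plus strand), went from 1618, 1896 and 1451 in WT to 2004, 2594 and 2183 in *met-2 set-25*. The *met-2* libraries had 1840, 1957 and 1488 and those of *set-25* 1647, 1629 and 1610, so all the double-mutant libraries were above the other 9. Log2FC was 0.45 ± 0.075 versus WT (FDR = 7.1e-05) and 0.36 versus *met-2* (FDR = 0.0050).

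*gly-11*, a polypeptide N-acetylgalactosaminyltransferase that starts mucin-type sugar chains (NM_001027777, III:12176945-12178644, minus strand), had 1610, 1713 and 1476 in WT and 1996, 2116 and 1868 in *met-2 set-25*. Its *met-2* libraries, at 1898, 1814 and 1555, reached into the double-mutant range. The *set-25* libraries stood at 1733, 1714 and 1636, and log2FC was 0.32 ± 0.063 versus WT (FDR = 0.00051).

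*F23H11.4* (NM_001373840, III:907319-909018, minus strand) had closely spaced WT libraries, at 1884, 1917 and 1925, against 2332, 2631 and 2285 in *met-2 set-25*. The *met-2* libraries read 1957, 2139 and 1752 and those of *set-25* 1815, 1772 and 1896. Every double-mutant library was higher than every other library, with log2FC of 0.34 ± 0.069 versus WT (FDR = 0.00068) and 0.31 versus *met-2* (FDR = 0.0081).

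The start of *epc-1*, related to the enhancer of Polycomb subunit of histone acetyltransferase complexes (NM_001383013, III:12608493-12610192, minus strand), had 1882, 2184 and 1714 in WT and 2322, 2828 and 2400 in the double mutant. For *met-2* the values were 2129, 2227 and 1708, and for *set-25* 1693, 1737 and 1826. The double-mutant libraries were again the highest, and log2FC versus WT was 0.38 ± 0.079 (FDR = 0.00082). The same locus holds the start of *Y111B2A.12* on the other strand, whose overlapping window rose by a log2FC of 0.35 (FDR = 0.0073), and counts taken in either orientation do not separate the pair.

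At *Y39A3CL.7* (NM_001027675, III:1823410-1825109, plus strand) the counts were 1448, 1489 and 1491 in WT and 1713, 1872 and 1753 in *met-2 set-25*. The *met-2* values of 1659, 1566 and 1521 lay between the WT and double-mutant values, and log2FC versus WT was 0.27 ± 0.056 (FDR = 0.0010). The unnamed NM_001381802 (III:3199308-3201007, minus strand) had 1485, 1650 and 1537 in WT and 1900, 1962 and 1749 in the double mutant, for a log2FC of 0.26 ± 0.059 (FDR = 0.0020), while its *met-2* and *set-25* libraries stood between 1491 and 1682.

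In *met-2 set-25* versus WT, body-wall muscle genes were the one list with higher windows. These were 6 of its 16 arm windows, from 2 of its 4 arm genes (*unc-45*, *unc-93*, *unc-49* and *sca-1*). The median log2FC of the 16 was 0.17, and 10 of the 16 belonged to *unc-49*. The share called higher was 1.82% over the arms, 3.44% of all windows and 14.3% of the most open quintile of all windows by mean level, and 86.1% of this list's windows across the genome lay above the median WT level. *unc-49* encodes the GABA-A receptor through which motor neurons relax the body wall. Its best window (NM_001382981, III:10519198-10520897, plus strand) had 2164, 2583 and 2261 in WT and 2920, 3230 and 2952 in the double mutant. The *met-2* libraries had 2528, 2714 and 2130 and those of *set-25* 2266, 2339 and 2500. The double-mutant libraries were the 3 highest, with a log2FC of 0.38 ± 0.085 (FDR = 0.0021). This start accounts for 8 of the 26 higher windows, 5 named *unc-49* and 3 unnamed. Other starts of *unc-49* did not pass: log2FC was 0.23 at NM_001306733 (FDR = 0.038), 0.02 at NM_001083179 and −0.11 at 3 other windows.

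*sca-1*, the sarco/endoplasmic reticulum calcium ATPase that clears calcium after contraction, likewise gained at one of its starts. The window of NM_001129236 (III:10815610-10817309, minus strand) had 2498, 3045 and 2350 in WT and 3177, 4105 and 3267 in the double mutant. Its counts in *met-2* were 2779, 2963 and 2255, and in *set-25* 2362, 2427 and 2570. All double-mutant values exceeded all others, and log2FC was 0.42 ± 0.095 versus WT (FDR = 0.0024). At its other starts log2FC was 0.17 (NM_066985, FDR = 0.065) and −0.11 (NM_066984). The myosin chaperone *unc-45* stood at 0.17 (FDR = 0.075) and *unc-93*, a regulator of a muscle potassium channel, at 0.01.

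The remaining gained loci held some of the most open arm promoters. *meic-1* (NM_066943, III:10633203-10634902, minus strand), the window with the second highest WT level, had 3540, 3747 and 2975 in WT and 3852, 5230 and 4549 in the double mutant. The single mutants read 3918, 4152 and 3104 (*met-2*) and 2982, 3080 and 3180 (*set-25*). Here *met-2* and the double mutant overlapped, and *set-25* lay at the lower end of WT; log2FC versus WT was 0.41 ± 0.097 (FDR = 0.0035). The overlapping pair NM_001384006 and *gei-4* near the left end followed, with log2FC of 0.36 at both (FDR = 0.0057 and 0.0063). *Y71H2AM.3* (NM_065221), named after its values were seen, went from 1596, 1781 and 1449 to 1888, 2029 and 1824, a log2FC of 0.25 ± 0.061 (FDR = 0.0046).

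**Figure D3:**
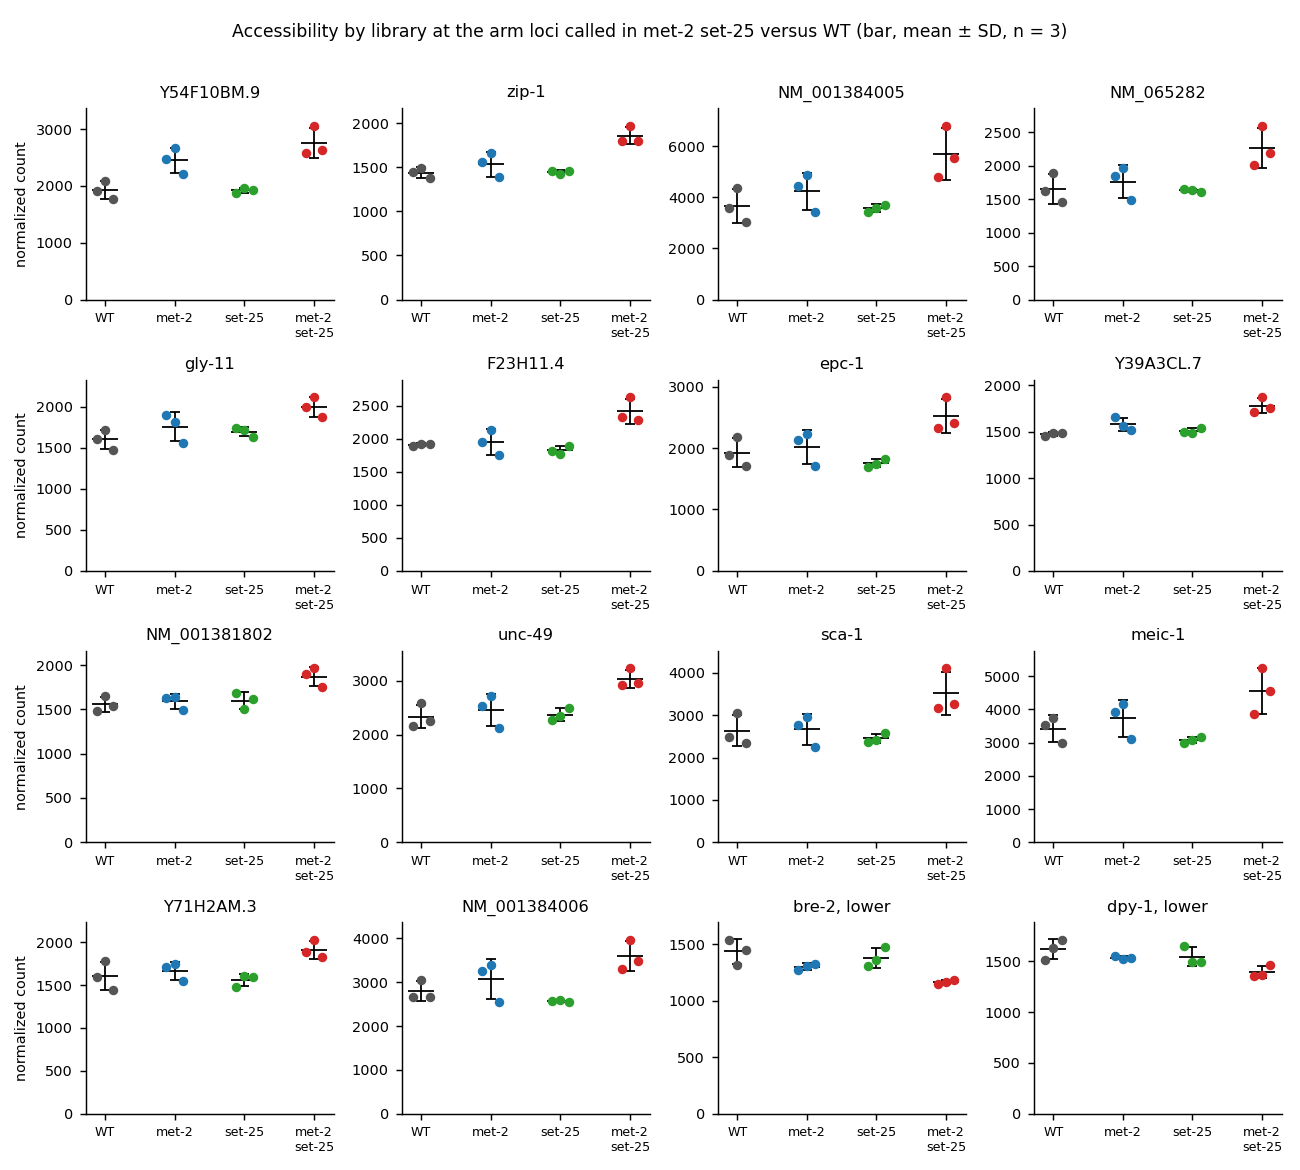
Normalized count (y axis, from 0) in each library at the 14 higher and 2 lower loci of *met-2 set-25* versus WT, 1 window per locus, with points for libraries and bars for the mean ± SD of 3 libraries. At each of the 14 higher loci the double-mutant libraries lay above all WT libraries, and at *bre-2* and *dpy-1* they lay below them.

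The 2 promoters that lost accessibility belonged to genes known from intestine and epidermis. *bre-2*, a glycosyltransferase whose mutants resist a Bacillus thuringiensis toxin (NM_001379974, III:13136932-13138631, minus strand), had 1540, 1317 and 1452 in WT and 1152, 1163 and 1185 in the double mutant. For *met-2* the values were 1274, 1306 and 1329, and for *set-25* 1307, 1360 and 1477. The double-mutant libraries were the lowest of the 12, with a log2FC of −0.30 ± 0.067 (FDR = 0.0022). *dpy-1*, whose mutants are short and fat (NM_001381759, III:2044824-2046523, minus strand), had 1517, 1632 and 1713 in WT and 1354, 1364 and 1462 in *met-2 set-25*, with *met-2* at 1557, 1527 and 1531 and *set-25* at 1655, 1492 and 1494. Its log2FC was −0.22 ± 0.059 (FDR = 0.0097), close to the threshold.

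At each of the 26 gained windows the log2FC of *met-2* versus WT was above 0, from 0.02 to 0.35 with a median of 0.07, and that of *set-25* was above 0 at 14, with a median of 0.01. These values share the WT libraries with those that chose the windows. Relative to the WT mean, the median log2 ratio of the 26 windows was −0.03, 0.14 and −0.05 in the WT libraries, 0.12, 0.20 and −0.13 for *met-2*, −0.06, −0.00 and 0.03 for *set-25*, and 0.30, 0.47 and 0.32 for the double mutant. The second library was the highest of WT, of *met-2* and of *met-2 set-25* alike, as it was for the signal index.

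Neither single mutant had a called arm window. In *met-2* versus WT, 0 windows were higher (0.0702% of all windows) and 0 lower (0.0312% of all windows) by edgeR, and DESeq2 also found 0. At an unadjusted p under 0.05 there were 27 higher (1.89%, against 2.32% of all windows) and 85 lower (5.94%, against 2.94%). Of the lower, 53 were on the right arm and 32 on the left. The median log2FC was −0.00 on the left arm and −0.04 on the right arm, as in the centre of III (−0.04), against 0.01 on the arms of II and of V. In *set-25* versus WT, 0 were higher (0.0117% of all windows) and 0 lower (0.0156% of all windows) by edgeR and by DESeq2, with 38 (2.66%, against 4.45% of all windows) and 40 (2.80%, against 3.06%) at an unadjusted p under 0.05. The median there was 0.00, and every arm window lay within 0.25 of no change.

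Between the double mutant and *met-2*, which differ by the *set-25* allele, 4 arm windows at 3 loci were higher (0.280%, against 0.367% of all windows) and 0 lower (0.0371% of all windows) in *met-2 set-25*. These were *zip-1*, NM_065282 and both windows of *F23H11.4*, given above. At an unadjusted p under 0.05, 102 windows (7.13%, against 9.20% of all windows) were higher and 84 (5.87%, against 12.6%) lower, and DESeq2 called 30 higher and 0 lower. The edgeR count of 4 fell to 1 without *met-2* replicate 1 or *met-2 set-25* replicate 3 and to 0 without *met-2* replicate 3, without *met-2 set-25* replicate 2 or with the signal index as a covariate. It was 11 without *met-2* replicate 2 and 7 without *met-2 set-25* replicate 1.

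Between the double mutant and *set-25*, which differ by the *met-2* allele, 63 arm windows at 37 loci were higher and 36 windows at 30 loci were lower in *met-2 set-25*. That was 4.40% against 7.64% of all windows, and 2.52% against 3.77% of all windows. The split of higher to lower moved with the scaling, from 63 and 36 with library totals to 79 and 7 with TMM factors. DESeq2, which differs in its test as well as its size factors, called 98 and 16. Adding the signal index to the model left 0 calls in either direction. Leaving out any one *set-25* library gave 30 to 41 higher and 9 to 15 lower, and the counts were 18 and 5 without *met-2 set-25* replicate 2 and 62 and 16 without its replicate 3.

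The 63 higher windows included all 26 that were higher than WT, and 37 others at 23 loci. At those 37 the log2FC versus WT was 0.07 to 0.28, with a median of 0.18, and *set-25* was below WT at all 37, with a median of −0.07. Both comparisons share the *met-2 set-25* libraries, and the choice of windows used the *set-25* libraries, so the place of *set-25* relative to WT is largely fixed by that choice. The next 5 genes were among them and are named after their values were seen. *ntl-3*, a subunit of the CCR4-NOT deadenylase, had 2183, 2162 and 2250 in *set-25* against 2790, 3281 and 2920 in the double mutant, for a log2FC of 0.45 (FDR = 4.7e-05). Its WT libraries, at 2418, 2821 and 2384, stood between the groups and overlapped the double mutant. The RNA-binding protein gene *atx-2* (ataxin-2) reached 0.33 (FDR = 0.00066), *rps-27A*, encoding ubiquitin fused to a ribosomal protein, 0.28 (FDR = 0.00051), the annexin *nex-2* 0.30 (FDR = 0.00025) and the mitochondrial chaperonin *hsp-60* 0.23 (FDR = 0.0037). On the other strand, *ecps-1* (0.31, FDR = 0.0012) overlaps *atx-2*, and *Y22D7AL.10* (0.24, FDR = 0.0051) overlaps *hsp-60*. The counts do not separate either pair. By gene list, *his-72*, which encodes histone H3.3, had 2162, 2172 and 2003 in *set-25* against 2501, 2953 and 2456 in the double mutant (log2FC 0.32, FDR = 0.0020). The proteasome ATPase gene *rpt-6*, read from the other strand of the same locus, had a log2FC of 0.28 (FDR = 0.0027).

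Of the 36 lower windows, 1 (*bre-2*) was also lower than WT. At the other 35, at 29 loci, log2FC versus WT had a median of −0.16, and *set-25* was above WT at all 35 with a median of 0.09, a direction that the choice of windows largely fixes, as for the higher windows. The smallest FDR was at *idpa-1* (NM_001381793, III:2901010-2902709), with 1546, 1588 and 1557 in *set-25* against 1185, 1216 and 1344 in the double mutant, for a log2FC of −0.33 (FDR = 0.00012). Its WT libraries (1293, 1360 and 1297) and *met-2* libraries (1348, 1385 and 1268) overlapped those of the double mutant. *Y41C4A.8* followed at −0.32 (FDR = 0.00026) and *Y39A3A.2* at −0.35 (FDR = 0.00047). The list included *prp-3*, a splicing factor (−0.32, FDR = 0.00097), and *let-805*, the myotactin that links muscle to epidermis (−0.23, FDR = 0.0080), both named after their values were seen. The CREB gene *crh-1* had starts in both directions: NM_001268207 was higher by 0.22 (FDR = 0.0080), and 3 windows about a common upstream start were lower by −0.24 to −0.26, the largest FDR being 0.0097.

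The change that depended on having both mutations together (the interaction of *met-2* and *set-25*) passed at 0 arm windows above (0.105% of all windows) and 0 below (0.039% of all windows) by edgeR. At an unadjusted p under 0.05 there were 101 (7.06%, against 9.86% of all windows) and 108 (7.55%, against 13.4%), and DESeq2 called 17 and 1. The edgeR count above was 12 without WT replicate 3, 7 without *met-2* replicate 2 and 4 without *met-2 set-25* replicate 1. Across the 1431 windows, the log2FC for losing *met-2* in WT and that for losing it in *set-25*, which share no library, had Pearson's r of 0.22 and Spearman's rho of 0.15. For losing *set-25* in WT and in *met-2*, r was −0.31 and rho −0.29. In the 286 windows of the highest quintile by mean level, r and rho for losing *met-2* were 0.49 and 0.42. Those for losing *set-25* were −0.32 and −0.30 there. These are descriptions across windows, many of which overlap, and windows of one library share its depth and signal index.

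Windows with a higher level carried most of the gains. With the arm windows divided into quintiles by their mean over all 12 libraries, the median log2FC of *met-2 set-25* versus WT was −0.07 in the lowest quintile and 0.02 in the highest. The highest quintile held 21 of the 26 higher windows (7.34% of its 286), and the lowest 0 of 287. Over all windows, 14.3% of the highest quintile were higher. Versus *set-25*, 46 of the 63 higher windows were in the highest quintile (16.1%, against 30.5% of the highest quintile of all windows) and 8 of the 36 lower ones in the lowest. The same 5 windows that ranked highest in WT, those of NM_001384005, *meic-1*, NM_001384006, *gei-4* and *sca-1*, were all among the 26. The mean over all 12 libraries includes the double mutant, so a gain itself raises a window's place in that split. When the split used WT alone, which also enters the log2FC, 18 of the 26 were in the highest quintile. Windows of a shared start, such as those of *unc-49*, count separately in both splits.

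**Figure D4:**
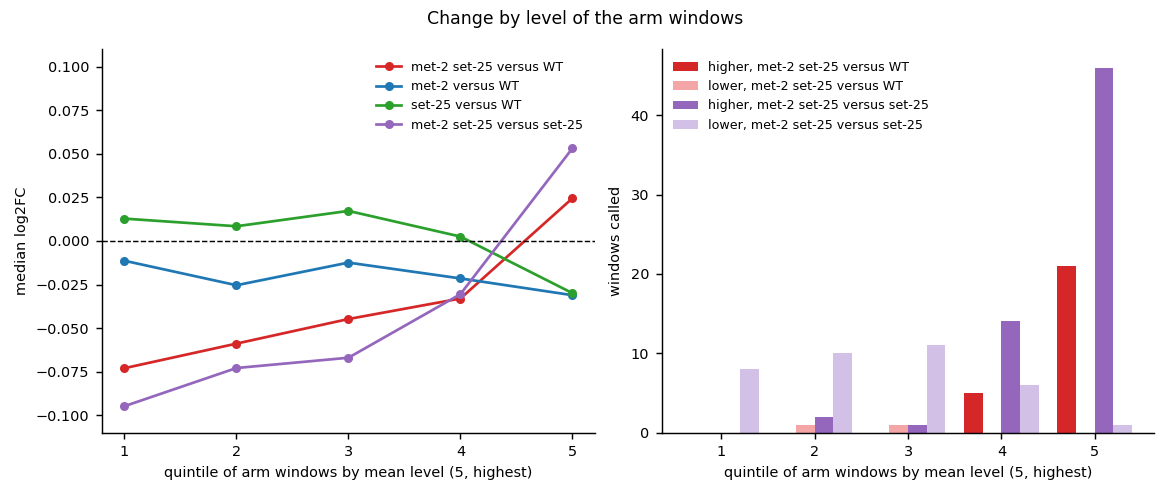
Left, median log2FC (y axis) in quintiles of the 1431 arm windows by mean level (x axis, 5 is the highest) for 4 contrasts; right, the number of windows called in each quintile. The median of *met-2 set-25* versus WT went from −0.07 in the lowest quintile to 0.02 in the highest, which held 21 of the 26 higher windows.

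None of the 4 least open loci was called versus WT. *W04B5.6*, the lowest in WT, had 96.0, 122 and 167, and its log2FC in *met-2 set-25* was 0.00. *Y43F4A.4* had 397, 374 and 443 in WT and a log2FC of −0.25 (FDR = 0.065), *cpt-3* stood at −0.04, and *H34I24.1* at −0.24. The last was lower than in *set-25*, by −0.33 (FDR = 0.0030), with 459, 455 and 463 in *set-25* against 362, 372 and 361 in the double mutant, so the groups did not overlap.

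Along the arms, the median log2FC of *met-2 set-25* versus WT was below 0 in all 14 bins of 0.5 Mb when scaled by library totals, from −0.05 to −0.00 on the left arm and from −0.07 to −0.03 on the right. Higher windows were spread over 6 of 7 left bins, with 0 to 3 in each. On the right, the bin next to the centre held 9, the 8 windows of the *unc-49* start and *meic-1*, and the other 6 bins held 0 to 3. For *met-2* versus WT the bin medians were −0.04 to 0.02 on the left and −0.07 to −0.01 on the right, where all 7 were below 0. The last window inside the left arm, that of *cyn-9*, had a log2FC of 0.10 and the first outside, that of *C14B1.2*, 0.20. On the right arm, *T07A5.1* inside had −0.13 and *vglu-3* outside −0.18. At the outer limits, *phkg-1* inside had −0.10 and *hpo-29* outside −0.07, and *lron-13* inside had −0.08 and *acs-5* outside −0.04.

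**Figure D5:**
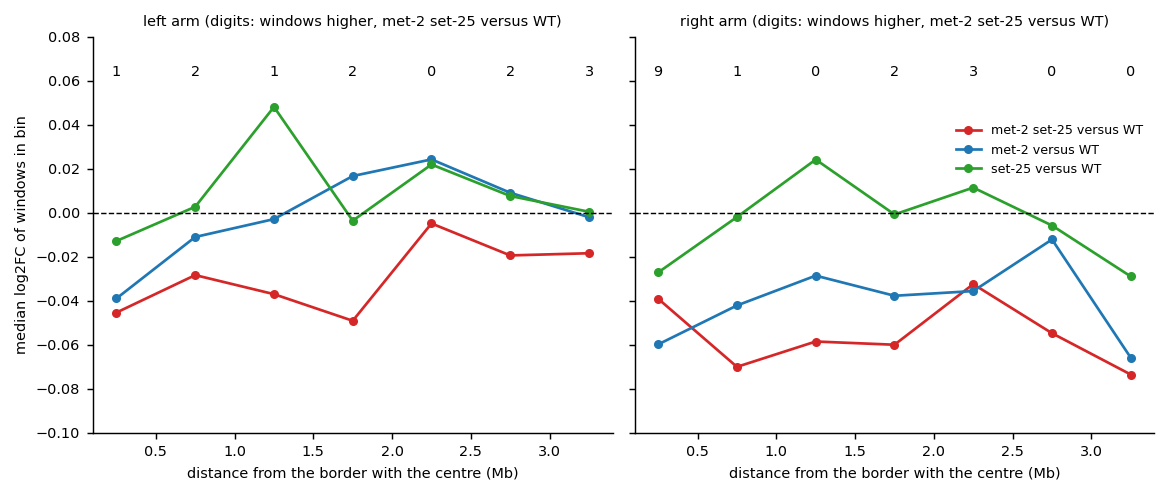
Median log2FC of arm windows (y axis) in bins of 0.5 Mb by distance from the border with the centre (x axis, Mb) for *met-2 set-25*, *met-2* and *set-25* versus WT, with digits giving the windows higher in *met-2 set-25*. Scaled by library totals, the double-mutant medians were below 0 in all 14 bins, and the inner bin of the right arm held 9 of the 26 higher windows.

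Gene families gave few calls on these arms. In *met-2 set-25* versus WT, 10.7% of all windows were above WT and 15.4% below at an unadjusted p under 0.05. Of the arm windows, 7.41% were above and 14.1% below. Departures of single lists from these shares were not tested. F-box genes, whose products select proteins for degradation, had 62 windows of 61 genes, 0 of them higher or lower than WT in *met-2 set-25* by edgeR (1 and 5 at an unadjusted p under 0.05), with log2FC from −0.20 to 0.12 and a median of −0.02. Versus *set-25* 1 was lower, *fbxa-35*, with 1229, 1189 and 1091 in *set-25* against 928, 1007 and 983 in the double mutant (log2FC −0.27, FDR = 0.0048). The 13 chemoreceptor genes had a median of −0.09, the 7 collagens −0.10, the 7 *pals* genes (8 windows) −0.07, the 7 neuropeptide genes (8 windows) −0.08 and the 7 mitochondrial ribosomal protein genes −0.05, each with 0 calls versus WT. At an unadjusted p under 0.05 these 5 lists together gave windows below WT alone, 3, 1, 0, 2 and 2. The C-type lectins, nuclear hormone receptors, homeobox factors, detoxification enzymes, ribosomal proteins, transthyretin-like proteins, tRNA synthetases, kinesins, histones and proteasome subunits, with 1 to 3 arm genes each, had 0 calls versus WT, and at an unadjusted p under 0.05 in *met-2 set-25* they gave 4 windows above and 6 below.

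The gene lists of cell types other than muscle had 1 call versus WT at their arm promoters, *dpy-1*. Being on a list does not mean that a gene is restricted to that cell type. The counts at an unadjusted p under 0.05 below stand beside 10.7% of all windows higher and 15.4% lower. Among neuronal genes, 10 windows of 5 genes had a median log2FC of −0.10 and 0 calls in *met-2 set-25* versus WT (0 higher and 1 lower at an unadjusted p under 0.05). *unc-119*, which is used as a panneuronal marker and a transgene rescue marker, had −0.06 and 0.06 at its starts, and *unc-25*, the GABA-synthesizing enzyme, −0.15 to −0.13 over 3 windows. Hypodermal genes had 8 windows of 5 genes, and a median of −0.07. The germline list (6 windows of *cosa-1*, *pie-1*, *fem-2* and *tra-1*) had a median of −0.05 and 0 calls (0 and 1 at an unadjusted p under 0.05), with *pie-1*, a repressor of transcription in germline precursors, at −0.21 at one start (NM_001268238, FDR = 0.014). The intestinal antimicrobial gene *spp-1* stood at −0.15. The only arm gene of the pharynx list, *pha-1*, stood at −0.01 and −0.00. Heterochromatin genes on the arms had 0 of 8 windows called (0 and 3 at an unadjusted p under 0.05), from −0.15 at *hpl-2*, the HP1 homologue that binds H3K9me, to 0.13 at *cec-7*, and the transcription factor *klf-1* stood at −0.16 (FDR = 0.13).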

How the data were processed

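Promoter counts of 12 Omni-ATAC libraries were analysed. The authors deposited raw read counts per window: by the study's methods and processing notes, reads were trimmed with cutadapt, aligned to ce10 with Bowtie2, deduplicated with Picard, converted to single ends with bedtools 2.26, shifted for Tn5 and counted in either orientation with QuasR. The treatment of multi-mapping reads is not given in the sources used here. By their coordinates the windows run from 1500 bp upstream to 200 bp downstream of the start site, which differs from the window in the methods. Symbols came from the file's accessions through a RefSeq table (WBcel235), used for names alone, which matched 49427 of 51519 windows.

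Counts were tested with edgeR 4.0.16 (glmQLFit and glmQLFTest, R 4.3.3) on 51281 windows with counts (238 had none), with all 12 libraries in 1 fit, library totals as library sizes and no replicate block. Windows were called at an FDR below 0.01. Libraries were grouped by the genotype in their labels. DESeq2 1.42.0, TMM factors, another filter, an FDR of 0.05, a signal-index covariate, a fit of the compared genotypes alone, repeated windows counted once and each library left out in turn were tried. Whether replicate numbers pair the samples was not settled. Same-numbered libraries of different genotypes correlated at −0.158 to 0.399, above 0.1 in 6 of 18 pairs, against 5 of 36 other pairs. Replicates differed by more than sampling noise (chi-square per window 3.22 to 8.22), so no library was counted as a repeat. The fit was tested on simulated data. Tables and figures used pandas 2.3.3, numpy 2.4.6 and matplotlib 3.10.9 (Python 3.11.15).

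Named windows were the first 10 higher and first 6 lower loci by FDR in *met-2 set-25* versus WT, the first 3 each way in other contrasts, the 4 highest and 4 lowest in WT, called members of the gene lists, and *unc-119*. Some other names are marked as chosen after their values were seen. *gei-4* and the gene that overlaps *epc-1* were also chosen in this way, but carry no mark. *crh-1*, other genes that overlap a named gene, other list members without a call and the genes at the arm borders also fall outside these rules. They are not marked either. The members and lists were chosen with earlier results of these data known.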

Additional observations from a re-analysis of the deposited data

Results flagged for a closer look

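At 17 named windows, the 3 libraries with an allele lost all lay on one side of the comparison group's mean in one background. In the other background they all lay on the other side of the mean of the group without that loss. Other arm windows were not searched, so 17 is not a count over the 1431 tested. Most named windows were chosen by calls from these same libraries, so the opposite signs are partly fixed by that choice. Single libraries of the groups could still overlap, as did those of *set-25* and WT at NM_065282. By the interaction term itself the difference passed an FDR of 0.01 at none of them (edgeR), the smallest being 0.022 at *epc-1*. The first log2FC of each pair is *set-25* versus WT and the second is *met-2 set-25* versus *met-2*, unless stated otherwise.

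Most of these windows had a log2FC below 0 for the loss of *set-25* in WT and above 0 for its loss in *met-2*. The calcium ATPase gene *sca-1* (NM_001129236) had −0.10 and 0.40, and *epc-1* had −0.14 and 0.32. *Y111B2A.12*, which overlaps *epc-1* on the other strand, had −0.18 and 0.30. The windows of *F23H11.4* had −0.063 and 0.31 (NM_001373840) and −0.069 and 0.31 (NM_064888), and NM_065282 had −0.026 and 0.36. *meic-1* had −0.15 and 0.29, NM_001384006 had −0.12 and 0.23, and *gei-4*, which overlaps it, had −0.12 and 0.22. *Y71H2AM.3* had −0.045 and 0.20, the histone H3.3 gene *his-72* −0.14 and 0.15, and *rpt-6*, at the same locus, −0.062 and 0.13.

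The others had the opposite signs. *Y41C4A.8* had 0.11 and −0.15, *Y39A3A.2* 0.089 and −0.17, and *H34I24.1* 0.092 and −0.30. *cpt-3*, among the least open arm windows, had 0.059 and −0.24, and *fbxa-35* had 0.19 and −0.12. For these last windows the loss of *met-2* also split: *cpt-3* had 0.20 in WT and −0.10 in *set-25*, and *fbxa-35* had 0.053 and −0.27.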

How the results depend on the processing

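The counts of arm windows called moved with several choices. In *met-2 set-25* versus WT (26 higher, 2 lower) DESeq2 gave 45 higher, an FDR of 0.05 gave 53 and 38, TMM factors and the fit of compared genotypes each gave 1 lower, and leaving out 1 library gave 4 to 36 higher and 0 to 13 lower. In *met-2* versus WT an FDR of 0.05 and the signal-index covariate each gave 1 higher, and leaving out 1 library 0 to 1. Versus *met-2* (4 higher, 0 lower) the double mutant had 7 higher with TMM factors, 30 with DESeq2, 2 in the fit of compared genotypes, 27 and 3 at an FDR of 0.05, and 0 to 11 higher and 0 to 1 lower with 1 library left out. Versus *set-25* (63 higher, 36 lower) it had 98 and 16 with DESeq2, 7 lower with TMM factors, 59 lower in the fit of compared genotypes, 102 and 139 at an FDR of 0.05, and 18 to 62 higher and 5 to 30 lower with 1 library left out. The interaction (0 and 0) gave 17 and 1 with DESeq2, 19 and 5 at an FDR of 0.05, and 0 to 12 and 0 with 1 library left out. The signal-index covariate left 0 calls in either direction in all 3 comparisons of the double mutant with another genotype. In the fit with a replicate block the counts were 39 and 13 versus WT, 26 higher versus *met-2*, 82 and 58 versus *set-25*, 16 and 2 for the interaction, and 1 higher in *met-2* versus WT. Whether the numbers pair the libraries was not settled, so these block values are given beside the main fit without a choice between them. The cause of each of these moves was not tested, apart from the fewer libraries or the other threshold that an alternative uses by construction. *set-25* versus WT had 0 calls under every alternative. Of 804 alternatives for 67 log2FC values of named windows, 578 kept their side of the threshold, 222 lost the call and 4 changed sign, all for *met-2 set-25* versus *set-25* with the signal-index covariate: NM_065282 (−0.044), *gly-11* (−0.026 at both windows) and *sca-1* (−0.010). The median log2FC over arm windows in *met-2 set-25* versus WT was −0.01 with TMM factors. Having 3 libraries per genotype, a median standard error of 0.065 and overlapping windows limit what differences these counts can show, and the deposited counts do not say whether a read maps to 1 place alone.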
